A study of Mus musculus with 6 samples.

Results

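The 36 genes described here code for integrins and for other components of the basement membrane and its receptors. They were taken by gene symbol and are 11 integrin chains, 6 laminin chains outside laminin-332, 6 type IV collagen chains, type XVIII collagen, 2 nidogens, the proteoglycans perlecan (Hspg2) and agrin, dystroglycan, fibronectin, tenascin C, 3 glypicans and 2 syndecans. All 36 were among the 24404 genes of the deposited table, and 35 had a mean normalised count of at least 10 over the libraries and were tested. RNA was sequenced from biliary epithelial cells, which line the bile ducts inside the liver, of adult C57BL/6 mice that had 1 week of DDC, a compound that injures bile ducts. There were 3 Klf5 LKO libraries, of genotype Alfp-CreTg/+;Klf5flox/flox, and 3 control libraries, of genotype Alfp-Cre+/+;Klf5flox/flox. Both groups thus carried the floxed Klf5 gene and both were injured, and no uninjured library entered the comparison. Alfp-Cre is a transgene driven by albumin and alpha-fetoprotein regulatory elements that acts in liver epithelial cells. Cre was present in the Klf5 LKO group alone, so an effect of Cre cannot be told apart from that of losing Klf5.

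A basement membrane is the thin sheet of matrix on which an epithelium rests. Laminin trimers and type IV collagen trimers form its 2 networks, which nidogens and perlecan link. Epithelial cells hold on to it through integrins, which are pairs of an alpha and a beta chain, through dystroglycan, and through the heparan sulphate chains of syndecans and glypicans. In the liver the bile ducts rest on such a sheet, whereas hepatocytes face a loose matrix without one.

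Total reads assigned to genes lay between 17161087 and 24784167 in the Klf5 LKO libraries and between 11726934 and 20066745 in the control libraries. Klf5 itself had normalised counts of 977, 1192 and 1183 in Klf5 LKO, against 2056, 2018 and 2316 in control, in every library below control (log2 fold change -0.93, adjusted p = 0.0103). That call ended when control 1, 2 or 3 was left out (adjusted p = 0.0625, 0.0681 and 0.0540), and the counts cover the whole gene, not the floxed part alone. Biliary markers were high in every library, with a summed normalised count over 10 genes of 579415 to 625977 in Klf5 LKO, against 597584 to 739639 in control. Spp1 made up more of it than the other 9 together in 5 of 6 libraries, and without Spp1 the sums were 268383 to 291379 in Klf5 LKO, against 253959 to 297585 in control. Of the 10 biliary markers limma called 0 (3 at an unadjusted p of at most 0.05), edgeR 0 and DESeq2 3, 1 higher and 2 lower, and for 4 the groups did not overlap. Over all tested genes 10.9% had such an unadjusted p, DESeq2 called 2.48%, and for 15.6% the groups did not overlap. Whether each library is a different mouse is not in the labels, and the p-values below therefore speak only of the spread among these 6 samples, some of which may be technical. For 16 members another gene is annotated on the opposite strand, and whether counting used strand is not given.

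Of the 35 tested basement membrane and integrin genes 1, the glypican Gpc3, passed the test. Gpc3 rose 2.41-fold in Klf5 LKO, and 34 tested members did not pass. The laminin chain Lama4 and the collagen receptor chain Itga2 stood closest to the threshold, with Lama4 higher and Itga2 lower in every Klf5 LKO library. The test was limma's moderated linear model on log2(normalised count + 1), with an adjusted p of at most 0.05 taken as a pass, a normalised count being the reads of a gene scaled for the depth of its library. Over all 13490 tested genes, 0.652% passed in limma, 0.163% as higher, and among the members 1 of 35 (2.86%) did, so the members' share rests on 1 gene. The median log2 fold change of the members was -0.034, and that of all tested genes was -0.0052, with 16 members above 0 and 19 below. With DESeq2 on recovered reads 3 members were called (Gpc3, Lama4 and Itga2), against 2.48% of all genes with an adjusted p, with edgeR 1 member was called, against 0.623%, and with limma-voom 0, against 0.549%. The authors' deposited table called the same 3 as DESeq2 among the 35 members with an adjusted p, against 2.41% of its genes. For 9 members, 25.7% of the 35, the ranges of the groups did not overlap, against 15.6% of all tested genes. Of these 5 were higher, against 7.72%, and 4 lower, against 7.88%. Further, 13 members had an unadjusted p of at most 0.05, 37.1% against 10.9%. No test of the list was made. Its members were chosen with earlier results of these data known, so nothing is read from these shares.

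**Figure D1:**
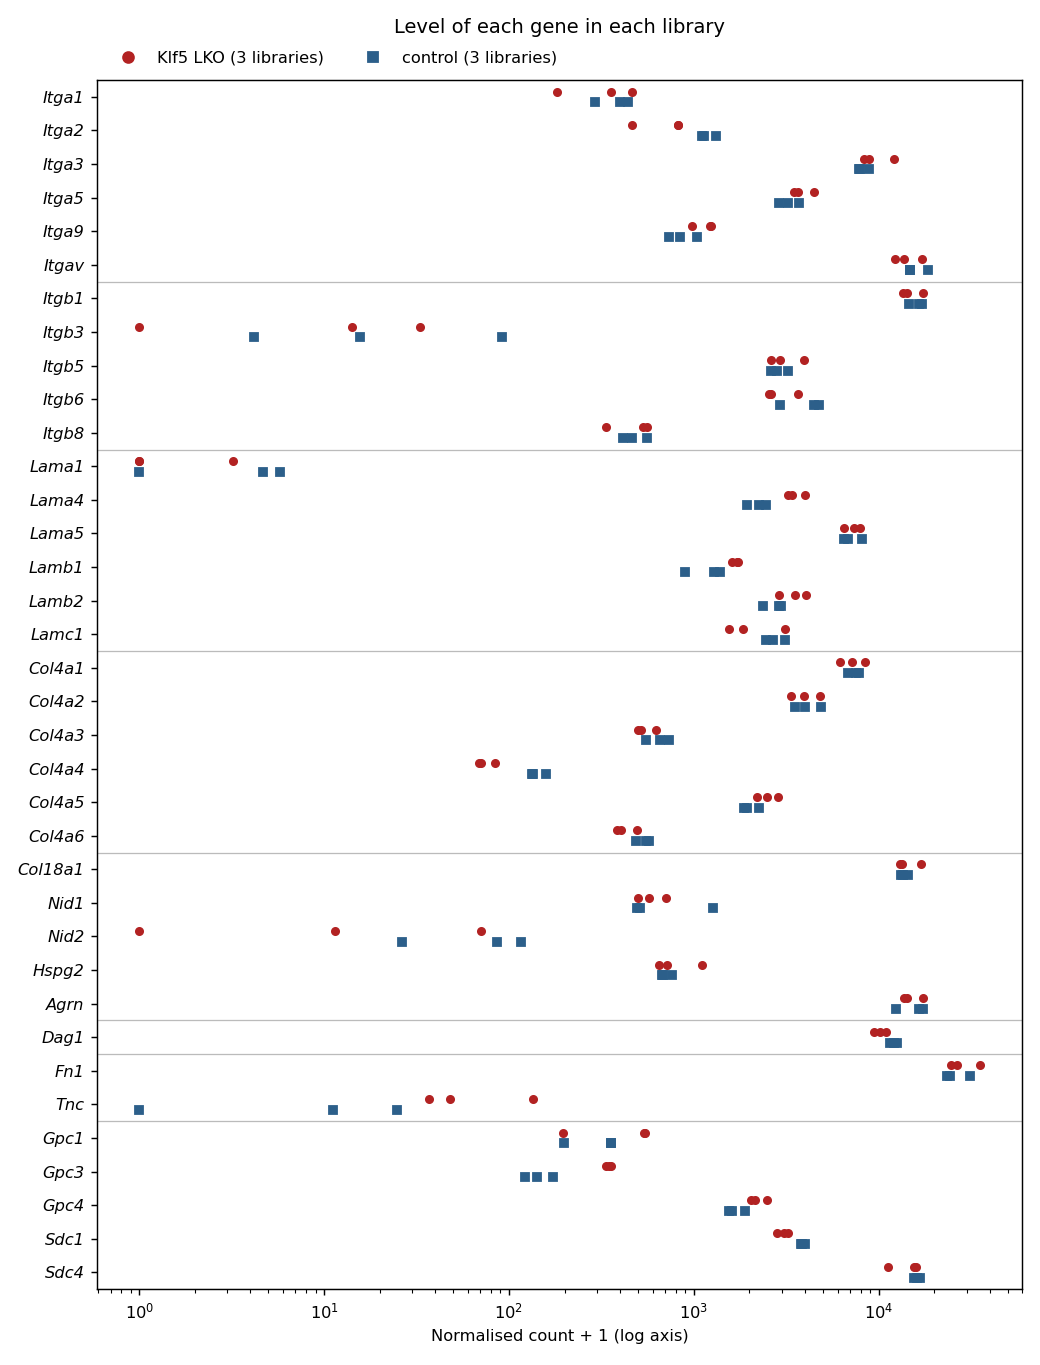
Normalised count plus 1 on a log axis for each of the 36 genes, grouped by role with grey lines between roles; red circles are the 3 Klf5 LKO libraries and blue squares the 3 control libraries. Levels span from 0 for Lama1 in 3 libraries to at least 23561 for Fn1 in all 6, and the groups are apart for 9 genes, among them Gpc3, Lama4 and Itga2.

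Of the 6 integrin alpha chains, 0 passed in limma, 2 had an unadjusted p of at most 0.05, and DESeq2 called 1 and edgeR 0. The 2 are 33.3%, against 10.9% of all tested genes, and the 1 is 16.7%, against 2.48%. Per kilobase of exon, the order of the mean levels was Itga3, Itgav, Itga5, Itga2, Itga9 and Itga1. The length counts every annotated exon of a gene, whether or not it was used in these cells. Orders and ratios between genes are therefore approximate. Itga3, the laminin-binding partner of beta 1, averaged 1712 normalised counts per kilobase in Klf5 LKO, against 1434 in control, and Itgav, which binds RGD-bearing ligands such as fibronectin, 1343 and 1493, also in Klf5 LKO and control. The ranges of these 2 genes per kilobase overlapped in both groups. Lower in the order, Itga2 averaged 98.3 per kilobase in Klf5 LKO, against 167 in control, and Itga9 averaged 149 in Klf5 LKO, against 113 in control, so that the order of these neighbours differed between the groups. Itga2 (chromosome 13, 114833081 to 114932100, minus strand, GRCm38) codes for a chain that forms with beta 1 a receptor for collagens. Its normalised count was 819, 819.8 and 464 in Klf5 LKO, against 1139, 1324 and 1111 in control. All 3 Klf5 LKO libraries were below all control libraries, with Klf5 LKO 3 the lowest of the 6. The log2 fold change was -0.81 (SE 0.22, 95% confidence interval -1.28 to -0.34) and did not pass in limma (adjusted p = 0.151), while DESeq2 called it (log2 fold change -0.76, adjusted p = 0.0296). In the authors' deposited table Itga2 had an adjusted p of 0.0304. With 1 library left out the difference of Itga2 ranged from -0.94 to -0.53, and the value nearest 0 was that without Klf5 LKO 3 (adjusted p = 0.262).

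Itga9, which binds tenascin C among other ligands, had 1217, 1246 and 980 in Klf5 LKO, against 734, 1042 and 840.2 in control (log2 fold change 0.40, adjusted p = 0.425). Klf5 LKO 3 lay below control 2, so the groups overlapped. Itgav had 13798, 17222 and 12274 in Klf5 LKO, against 14861, 18548 and 14703 in control, which overlapped, and so did Itga3 (log2 fold change 0.24, adjusted p = 0.615). The ratio of Itga3 to Itga2 per kilobase was 13.4, 18.5 and 22.5 in Klf5 LKO, against 8.56, 8.32 and 8.91 in control, higher in all 3 Klf5 LKO libraries. The fibronectin receptor chain Itga5 and the collagen receptor chain Itga1 had means of 3860.5 ± 528 and 334 ± 142 in Klf5 LKO, against 3290.5 ± 407 and 376 ± 76.9 in control (SD, n = 3 each), and both overlapped. Pelo, a gene annotated over part of Itga1 on the same strand, averaged 149 in Klf5 LKO, against 205 in control.

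The promoter of Itga2 and that of Gpc3, the gene that passed, are shown because these genes were called by a test and have an entry in the RefSeq promoter table. Each run is the 250 bases before the annotated start, read 5′ to 3′ on the gene's strand, from RefSeq on GRCm38.p6. Capitals mark CCNCNCCC on either strand, a C-rich form of the letters that Krüppel-like factors are known to bind.
Gpc3: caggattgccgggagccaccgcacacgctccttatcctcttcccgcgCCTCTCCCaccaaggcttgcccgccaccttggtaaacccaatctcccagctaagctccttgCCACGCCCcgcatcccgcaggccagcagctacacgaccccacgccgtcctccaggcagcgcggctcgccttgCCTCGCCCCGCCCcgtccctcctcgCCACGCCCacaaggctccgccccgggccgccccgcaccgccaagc
Itga2: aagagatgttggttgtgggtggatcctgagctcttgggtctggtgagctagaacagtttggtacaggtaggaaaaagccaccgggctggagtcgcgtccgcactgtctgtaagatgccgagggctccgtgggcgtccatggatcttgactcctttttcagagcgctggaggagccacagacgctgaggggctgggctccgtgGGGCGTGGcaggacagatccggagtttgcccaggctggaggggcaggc
The Gpc3 window (chrX:52613975-52614224, minus strand) held 5 matches, of which 2 share bases within the longest run of capitals. It also held 3 copies of GGGCGG, the GC box, on either strand, and 2 of the 5 matches overlap a copy. The Itga2 window (chr13:114932101-114932350, minus strand) held 1 match and 0 copies of GGGCGG. Of all 32851 RefSeq windows of this length, 45.9% held CCNCNCCC and 32.7% held GGGCGG. Among the members, 28 genes had 34 windows in the table, and 29 windows of 24 genes held CCNCNCCC. The Gpc3 and Itga2 windows were 71.6% and 60.8% G or C, whose part in these counts was not tested.

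Among the 5 integrin beta chains 0 passed in limma, 1 had an unadjusted p of at most 0.05, and DESeq2 and edgeR called 0. That 1 chain is 20.0%, against 10.9% of all tested genes. Itgb1, the common partner of most alpha chains, was the highest per kilobase, at 3708 in Klf5 LKO, against 3933 in control. Its normalised counts were 13618, 17470.4 and 14308 in Klf5 LKO, against 14552, 17083 and 16513 in control, which overlapped (log2 fold change -0.09, 95% confidence interval -0.38 to 0.20). Itgb6, which pairs with alpha v in injured epithelia, had 3646, 2608 and 2540.5 in Klf5 LKO, against 4766, 4451 and 2927 in control. Klf5 LKO 1 lay above control 3, and the log2 fold change of -0.45 did not pass (adjusted p = 0.425). Its alpha v partner chains Itgb5 and Itgb8 averaged 3160.2 ± 689 and 474 ± 123 in Klf5 LKO, against 2891 ± 305 and 477 ± 72.3 in control (SD, n = 3 each). Per kilobase the ratio of Itgb6 to Itgb5 was 0.463, 0.444 and 0.486 in Klf5 LKO, against 0.909, 0.690 and 0.516 in control. The 2 groups of ratios did not overlap, although neither gene was apart alone. Itgb3, the beta chain of platelets and osteoclasts, was near the limit of detection, with 16, 43 and 0 reads in Klf5 LKO, against 16, 2 and 89 in control.

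Of the 5 tested laminin chains, 0 passed in limma, 3 had an unadjusted p of at most 0.05, all higher in Klf5 LKO, and DESeq2 called 1 and edgeR 0. The 3 are 60.0%, against 10.9% of all tested genes, and the 1 is 20.0%, against 2.48%. The median log2 fold change of these chains was 0.34, with 4 of 5 above 0, and nothing is read from so few genes. Lama4 (chromosome 10, 38965515 to 39110188, plus strand), an alpha chain best known from vessel walls, had normalised counts of 4001, 3388 and 3224 in Klf5 LKO, against 1942, 2246 and 2452 in control. Every Klf5 LKO library was above every control library. The log2 fold change was 0.68 (SE 0.14, 95% confidence interval 0.38 to 0.98), with an adjusted p of 0.0532 in limma, 0.000439 in DESeq2 and 0.0714 in edgeR. It passed in limma with a pseudocount of 5 (adjusted p = 0.0440) and with a minimum mean of 50 (adjusted p = 0.0313). In the authors' deposited table its adjusted p was 0.000476.

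Lama5, the main alpha chain of adult epithelial basement membranes, had 6504, 7921 and 7359 in Klf5 LKO, against 6861, 6515 and 8120.0 in control, which overlapped (log2 fold change 0.021, 95% confidence interval -0.26 to 0.30). The sign of that difference turned when Klf5 LKO 2, control 1 or control 2 was left out. The ratio of Lama4 to Lama5 per kilobase was 0.581, 0.404 and 0.413 in Klf5 LKO, against 0.267, 0.325 and 0.285 in control. All 3 Klf5 LKO ratios were higher, and Lama5 stayed the more abundant alpha chain in every library. Lamb1, a beta chain, had 1725, 1712 and 1609 in Klf5 LKO, against 897, 1291 and 1383 in control. Its groups did not overlap, with the narrower spread in Klf5 LKO (log2 fold change 0.52, SE 0.17, adjusted p = 0.263), and the difference fell to 0.33 without control 1. The other beta chain, Lamb2, averaged 3481 ± 581 in Klf5 LKO, against 2733 ± 316 in control (SD, n = 3 each), and overlapped by the lowest Klf5 LKO library. Lamc1, the gamma chain that these trimers share, had 1552, 3100.3 and 1857 in Klf5 LKO, against 2473, 2673 and 3109 in control. Its lowest values were in Klf5 LKO 1 and 3, while Klf5 LKO 2 was close to the highest control. The ratio of Lamc1 to Lamb2 per kilobase was 0.325, 0.563 and 0.473 in Klf5 LKO, against 0.767, 0.666 and 0.795 in control, lower in all 3 Klf5 LKO libraries. Lama1, an alpha chain of early embryos, had at most 4 reads in any library and was not tested.

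**Figure D2:**
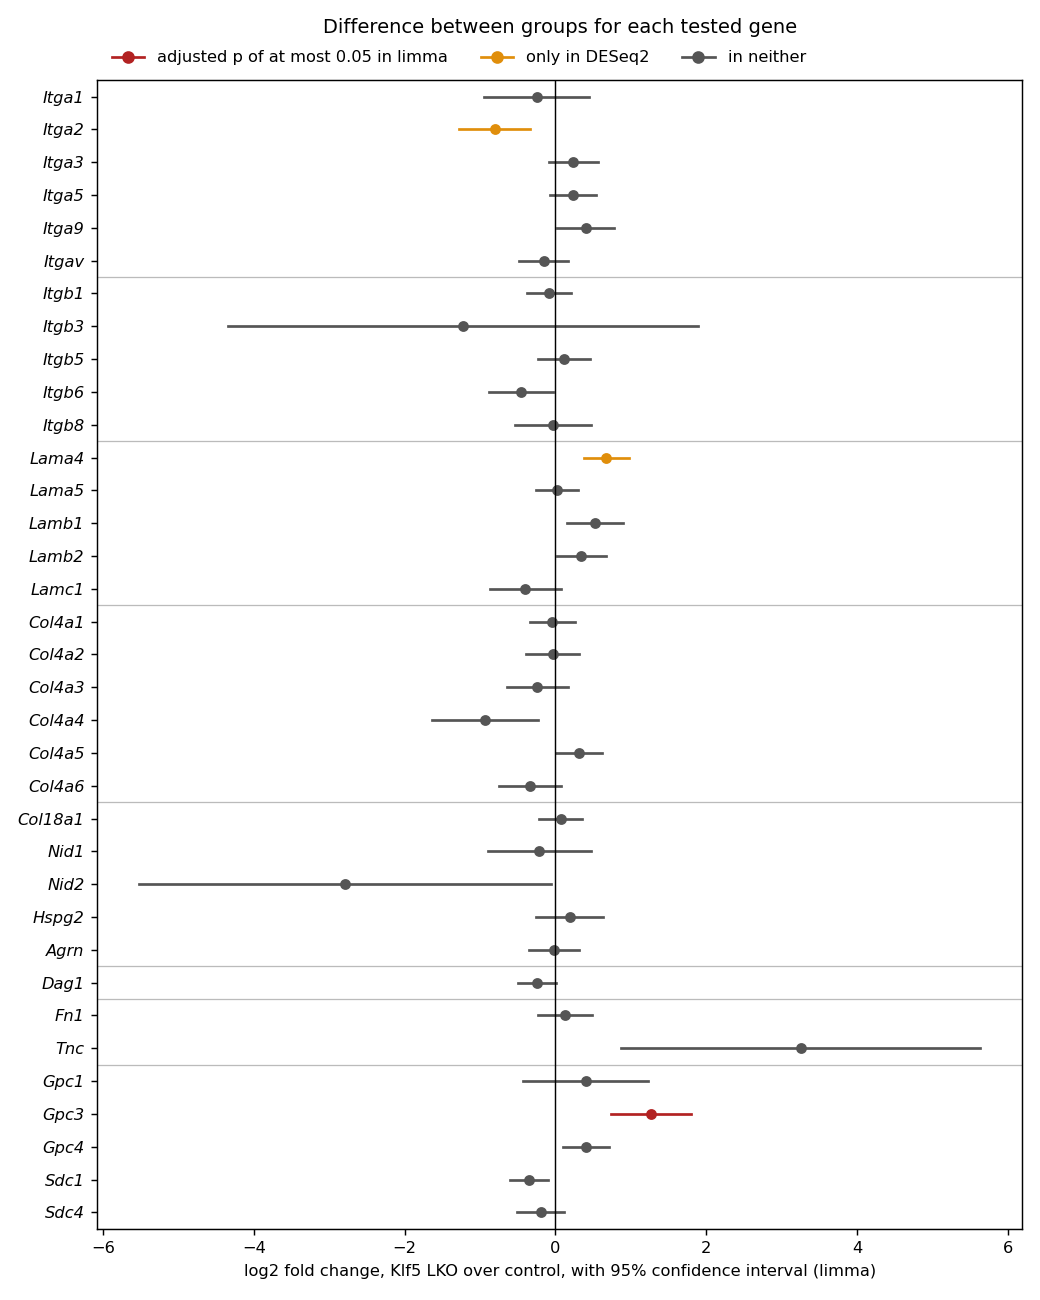
The log2 fold change of Klf5 LKO over control with its 95% confidence interval from limma for the 35 tested genes, grouped by role with grey lines between roles. Gpc3 (red) passed in limma, Lama4 and Itga2 (orange) passed in DESeq2 alone, and the widest intervals belong to Itgb3, Nid2 and Tnc, which had few reads.

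Of the 6 type IV collagen chains, 0 passed in limma, 2 had an unadjusted p of at most 0.05, and DESeq2 and edgeR called 0. Those 2 chains are 33.3%, against 10.9% of all tested genes. The chains come as 3 pairs of neighbouring genes read in opposite directions, alpha 1 with alpha 2, alpha 3 with alpha 4 and alpha 5 with alpha 6. Col4a1 and Col4a2, which form the common trimer, had starts 21 bases apart on chromosome 8. Col4a1 had 6152, 8481 and 7157 in Klf5 LKO, against 6859, 7529 and 7872 in control, which overlapped (log2 fold change -0.041, 95% confidence interval -0.34 to 0.26), and the sign turned without Klf5 LKO 1 or control 3. Its ratio to Col4a2 per kilobase was 1.60 ± 0.0377 in Klf5 LKO, against 1.61 ± 0.163 in control (SD, n = 3 each). Over all 6 libraries the ratio ran from 1.43 in control 3 to 1.73 in control 1. Their annotated ends overlap at the start, and reads there may have been assigned to either.

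The other 2 pairs, whose products join in the trimers best known from kidney and from smooth muscle or skin, had unequal partners. Col4a4 (chromosome 1, 82448423 to 82586849, minus strand) had 68.2, 69.3 and 83.0 in Klf5 LKO, against 132, 158 and 134 in control. All Klf5 LKO libraries were lower, on 78 to 93 reads in Klf5 LKO, against 100 to 144 in control. The log2 fold change of -0.94 (SE 0.32) missed the threshold (adjusted p = 0.287). Its neighbour Col4a3 had 500.4, 625 and 517 in Klf5 LKO, against 738, 656 and 551 in control, which overlapped (log2 fold change -0.24). The ratio of Col4a3 to Col4a4 per kilobase was 7.81, 9.61 and 6.63 in Klf5 LKO, against 5.93, 4.42 and 4.37 in control, and did not overlap. Col4a5 had 2502, 2845 and 2206 in Klf5 LKO, against 1950, 2251 and 1861 in control, while Col4a6 had 382, 493 and 401 in Klf5 LKO, against 569, 550.0 and 487 in control. Each of the 2 overlapped by 1 library, with log2 fold changes of opposite sign, 0.31 and -0.34 (adjusted p = 0.438 and 0.569). Their ratio was 7.77, 6.84 and 6.52 in Klf5 LKO, against 4.06, 4.86 and 4.54 in control. Ratios were taken for 12 pairs of members, in part after their values had been seen, and were not tested. For 8 pairs the groups did not overlap, but no such share was computed for other gene pairs, so nothing is read from that count.

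The bases between the annotated starts of Col4a3 and Col4a4 are shown because the 2 genes that leave them in opposite directions had unequal levels. The run covers chr1:82586850-82586920 on the strand of Col4a4 (minus), with the sequence from RefSeq on GRCm38.p6 and the Col4a3 start from GENCODE M21. Capitals again mark CCNCNCCC on either strand.
Col4a3-Col4a4 gap: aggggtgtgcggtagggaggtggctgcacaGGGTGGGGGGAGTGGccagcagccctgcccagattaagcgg
These 71 bases held 2 matches, which share 1 base, and no GGGCGG on either strand. Among all RefSeq windows cut to the 71 bases before a start, 25.7% held CCNCNCCC. Col4a5 and Col4a6 have starts 1309 bases apart on chromosome X.

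**Figure D3:**
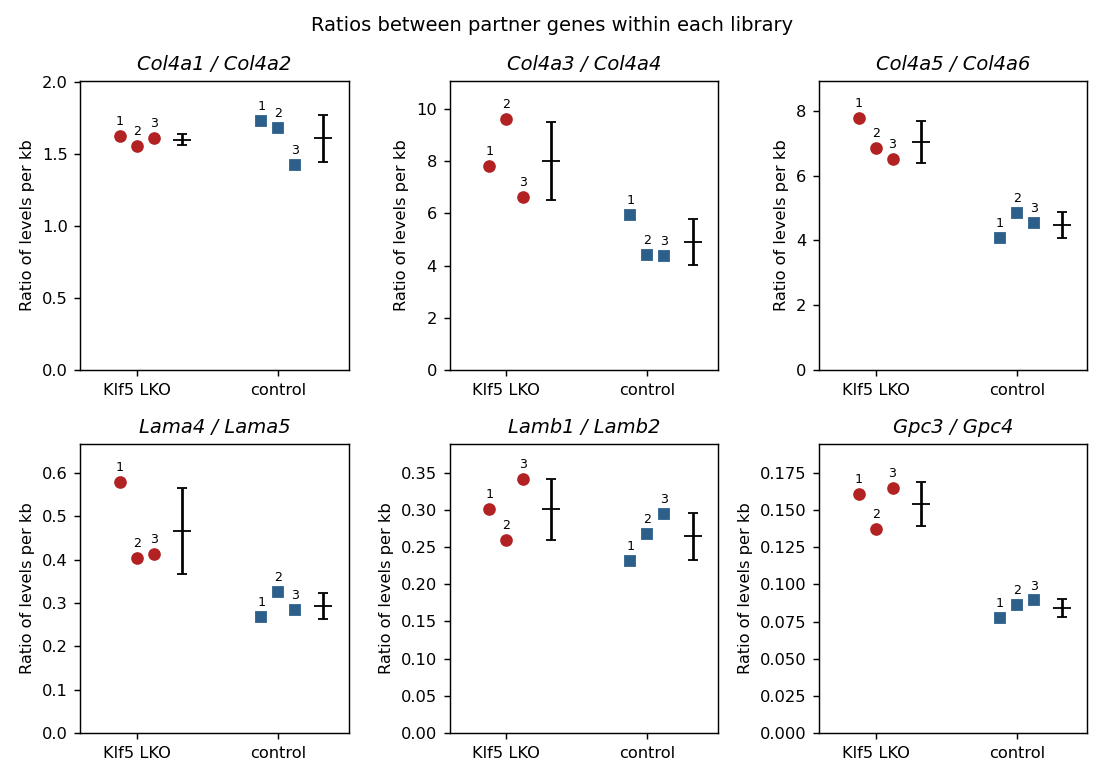
Ratio of the levels per kilobase of exon between partner genes in each library (numbers mark the replicate), with the mean and SD at the right of each group; red circles are Klf5 LKO and blue squares control. The Col4a1 to Col4a2 ratio stays between 1.43 and 1.73 in all 6 libraries, and the Col4a3 to Col4a4, Col4a5 to Col4a6, Lama4 to Lama5 and Gpc3 to Gpc4 ratios are higher in all 3 Klf5 LKO libraries.

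Among type XVIII collagen, the nidogens, perlecan and agrin, 0 of 5 passed in limma, 1 had an unadjusted p of at most 0.05, and DESeq2 and edgeR called 0. That 1 gene is 20.0%, against 10.9% of all tested genes. Agrin, a heparan sulphate proteoglycan that binds laminin and dystroglycan, had 13674, 17488 and 14313 in Klf5 LKO, against 12438, 17382 and 16439 in control. The groups overlapped (log2 fold change -0.018, 95% confidence interval -0.35 to 0.32), and the sign turned when Klf5 LKO 1, Klf5 LKO 3, control 2 or control 3 was left out. Col18a1, whose end fragment is endostatin, averaged 14470 ± 2126 in Klf5 LKO, against 13691 ± 599 in control (SD, n = 3 each). Perlecan, coded by Hspg2, had 646, 1110 and 717 in Klf5 LKO, against 672, 683 and 758 in control, and Klf5 LKO 2 alone stood above the control range. Nid1 had 709, 497 and 573 in Klf5 LKO, against 489, 514 and 1264 in control, where control 3 was more than double the other libraries of its group. Nid2 was scarce, with 0, 14 and 65 reads in Klf5 LKO, against 93, 16 and 114 in control (adjusted p = 0.446).

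Dystroglycan, a laminin and agrin receptor made from Dag1, had 10175, 11014 and 9469 in Klf5 LKO, against 11537, 12076 and 12549 in control. The groups did not overlap, but the difference was small, at -0.24 on the log2 scale (SE 0.12), and did not pass (adjusted p = 0.484). Fibronectin is a matrix protein that integrins bind through its RGD sequence, and its gene took the most reads of any member. Fn1 had 24656, 35532 and 26420.3 in Klf5 LKO, against 24412, 23561 and 31082 in control, with Klf5 LKO 2 the highest, and the groups overlapped (log2 fold change 0.12, adjusted p = 0.844). Without Klf5 LKO 2 the sign turned, to -0.035. Tenascin C, a matrix protein of injured tissue, was scarce. Tnc had 44, 180 and 44 reads in Klf5 LKO, against 26, 0 and 10 in control, or normalised counts of 36.2, 134 and 46.8 in Klf5 LKO, against 23.9, 0 and 10.2 in control. Each Klf5 LKO library was above each control library. The log2 fold change was 3.25 (SE 1.09) and did not pass (adjusted p = 0.271; DESeq2 2.63, adjusted p = 0.105). It rests on few reads, and it fell to 1.90 without control 2, the library with 0 reads.

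The cell surface proteoglycans held the member that passed, with 1 of 5 higher and 4 not past the threshold. Over all tested genes 0.163% were called higher, and the share here rests on 1 gene. At an unadjusted p of at most 0.05, 2 were higher and 1 lower (60.0%, against 10.9% of all tested genes). DESeq2 called 1 (20.0%, against 2.48%) and edgeR 1 (against 0.623%). Gpc3 (chromosome X, 52272426 to 52613950, minus strand) codes for glypican 3, a lipid-anchored heparan sulphate proteoglycan known from fetal liver and liver tumours. It had 334, 347 and 357 normalised counts in Klf5 LKO, against 121, 141 and 172 in control. The Klf5 LKO values lay close together, and all 3 were above the highest control value. The log2 fold change was 1.27 (SE 0.24, 95% confidence interval 0.74 to 1.80; limma, adjusted p = 0.0382). DESeq2 gave an adjusted p of 0.000978 and edgeR one of 0.0449, while with limma-voom it was 0.0589. The call ended when any 1 of the 6 libraries was left out (limma adjusted p of 0.0590 for control 3, the lowest, and 0.168 for control 1, the highest), although the log2 fold change stayed between 1.15 and 1.40. In the authors' deposited table the log2 fold change of Gpc3 was 0.90 with an adjusted p of 0.000488. DESeq2 on the recovered reads gave 1.26. For Tnc the deposited change was 0.44 and that of DESeq2 here 2.63, so the sizes are not on 1 scale and are not compared. A630012P03Rik, a gene on the other strand of Gpc3, had normalised counts of at most 3.19 in Klf5 LKO, against 0 in control.

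**Figure D4:**
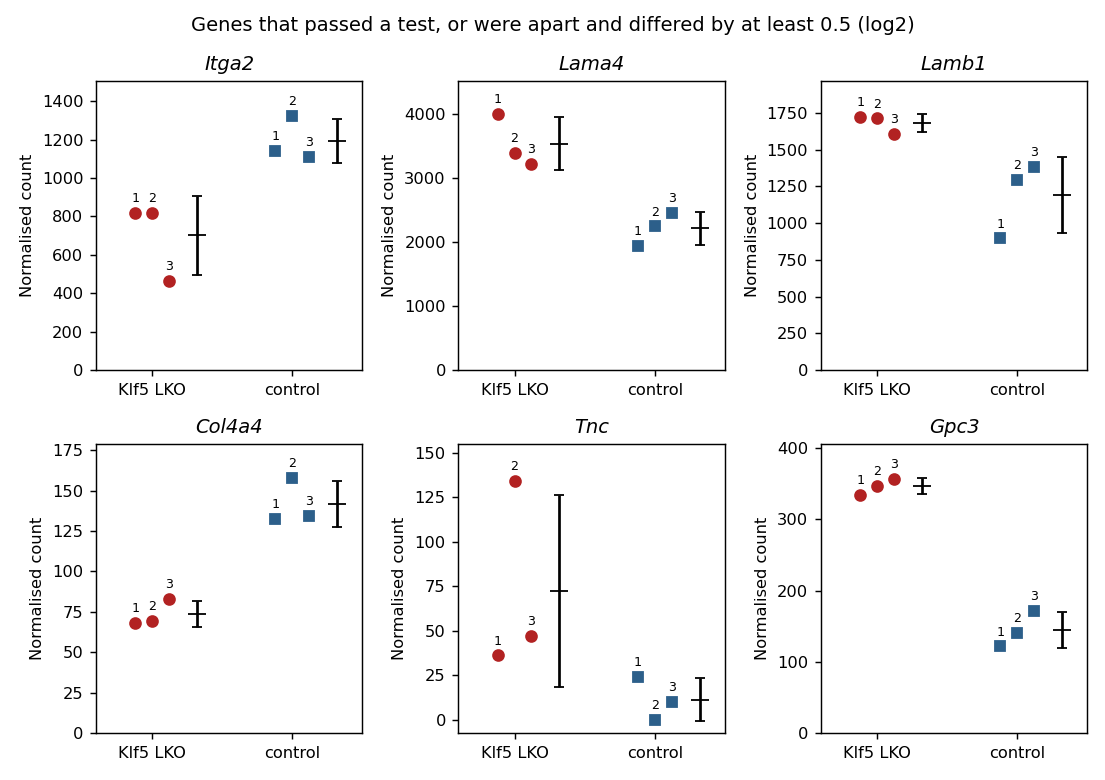
Normalised counts per library (numbers mark the replicate) of the 6 genes that passed a test in limma or DESeq2 or whose groups were apart with a log2 fold change of at least 0.5 in size; the bars at the right of each group are the mean and SD. The Klf5 LKO values are all below control for Itga2 and Col4a4 and all above control for Lama4, Lamb1, Tnc and Gpc3, with Tnc the most scattered.

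Gpc4, the neighbour of Gpc3 on chromosome X with 107173 bases between the annotated genes, had 2049, 2492 and 2131 in Klf5 LKO, against 1543, 1606 and 1896 in control. The groups did not overlap, and the log2 fold change of 0.40 (SE 0.14) did not pass (adjusted p = 0.287). Per kilobase, Gpc4 was the more abundant, 6.52 ± 0.664 times Gpc3 in Klf5 LKO, against 11.9 ± 0.890 times in control (SD, n = 3 each). Gpc1 had 544, 539 and 195 in Klf5 LKO, against 355, 354 and 198 in control, with 1 low library in each group. Sdc1, an epithelial syndecan that binds growth factors and matrix, had 2831, 3076 and 3239 in Klf5 LKO, against 3830.1, 3803 and 4008 in control. Its groups did not overlap, and the log2 fold change of -0.35 (SE 0.12) did not pass (adjusted p = 0.266). Sdc4, a syndecan of focal adhesions, was the highest of all members per kilobase, at 5593 in Klf5 LKO, against 6332 in control. Its normalised counts were 11291, 15966 and 15482 in Klf5 LKO, against 16681, 16185 and 15515 in control, where Klf5 LKO 1 alone was clearly lower.

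Confidence intervals were read gene by gene and speak only of the spread among these 6 samples. Of the 22 tested members with a mean normalised count of at least 1000, all 22 had a 95% confidence interval of the log2 fold change between -1 and 1, and of all 35 tested members 28 did. Itga2, with a mean of 946, fell just under that limit, and its interval was -1.28 to -0.34. The members' values also moved with the library. Klf5 LKO 2 held the highest value of the 6 libraries for 12 of 35 members (34.3%, against 14.6% of all tested genes) and the lowest for 0, while Klf5 LKO 1 held the lowest for 12 (34.3%, against 24.5%). Klf5 LKO 3 held the lowest for 10 (28.6%, against 16.5%) and the highest for 1 (2.86%, against 16.3%). Of the control libraries, control 1 held the lowest for 9 (25.7%, against 15.6%), and control 3 held the highest for 8 and the lowest for 1. The part of this in the results was not tested. Fits without each library covered all 35 tested members. Their log2 fold changes were compared gene by gene for 14 members, and whether the signs of the other tested members turned is not given.

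Other genes of the same structures were mostly not past the threshold either. Of laminin-332 and its integrin, 2 of 5 tested genes fell and 0 rose, namely Lama3 and Lamb3. Lama3, its alpha chain, had 50.9, 30.6 and 29.8 in Klf5 LKO, against 437, 395 and 494 in control (adjusted p = 0.000310), and Lamb3, its beta chain, had 625, 591 and 416 in Klf5 LKO, against 4061, 4873 and 4568 in control (adjusted p = 6.46e-06). In 10 tested genes for other integrin and laminin chains, 0 passed in limma, 0 had an unadjusted p of at most 0.05, and DESeq2 and edgeR called 0. Itgb7 and Itgax, leukocyte integrin chains, came nearest, with means of 19.4 and 54.0 in Klf5 LKO, against 79.9 and 204 in control (adjusted p = 0.612 and 0.651). Of 25 tested adhesion adaptors and signalling genes 0 passed in limma, 1 had an unadjusted p of at most 0.05 (4.00%), and DESeq2 and edgeR called 0. Over all tested genes 10.9% had such an unadjusted p. Nearest were the docking protein Bcar1, with 4052 ± 386 in Klf5 LKO, against 2981 ± 476 in control, and the integrin-linked kinase Ilk, with 3289 ± 513 in Klf5 LKO, against 2649 ± 218 in control (SD, n = 3 each; adjusted p = 0.257 and 0.470, limma). Among 15 tested partners and glycosylation enzymes of dystroglycan 0 passed in limma and DESeq2 and edgeR called 0. An unadjusted p of at most 0.05 was held by 2 (13.3%, against 10.9%). Dtna, an adaptor of the dystrophin complex, had means of 766 in Klf5 LKO, against 454 in control, and the glycosyltransferase Pomgnt1 had 1779 in Klf5 LKO, against 1183 in control (adjusted p = 0.230 and 0.425).

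Matrix assembly genes and heparan sulphate genes each held 1 gene that fell. Among those for matrix assembly and collagen maturation, 1 of 33 tested genes fell and 0 rose in limma. DESeq2 called 2 lower (6.06%, against 2.48% over all genes) and edgeR 1. At an unadjusted p of at most 0.05, 5 were higher and 3 lower (24.2%, against 10.9%). Fbln2, a matrix glycoprotein that binds laminin and nidogen, had 4926, 6128 and 4510.2 in Klf5 LKO, against 8558, 10042 and 11929 in control. Its log2 fold change was -0.97 (SE 0.15, adjusted p = 0.0148). The call ended without Klf5 LKO 3, control 2 or control 3, with adjusted p = 0.0659, 0.0905 and 0.0611. Among those for heparan sulphate synthesis and other proteoglycans 1 of 27 tested genes fell and 0 rose in limma. DESeq2 called 3 lower (11.1%, against 2.48%) and edgeR 1. At an unadjusted p of at most 0.05, 0 were higher and 4 lower (14.8%, against 10.9%). Hs3st1, an enzyme that adds sulphate groups to heparan sulphate chains, had 384, 401 and 429 in Klf5 LKO, against 923, 847 and 1437 in control. All Klf5 LKO libraries were lower. Hs3st1 passed at -1.36 on the log2 scale (SE 0.21; adjusted p = 0.0116), and the call ended without control 1 (adjusted p = 0.0504). Over these 6 lists together 115 genes were tested and 4 fell (3.48%, against 0.489% of all tested genes called lower), 2 of them the laminin-332 chains. The lists were chosen with earlier results of these data known, so nothing is read from that share.

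Several members are also made by cells other than biliary epithelium, and markers of those cells are given beside them. In bulk RNA, fewer cells of a type and less RNA per cell cannot be told apart. Nor can the reads of a marker be assigned to any cell type, so the list names are labels only. Of 12 stellate cell and fibroblast markers, Col1a2, Col3a1, Pdgfra, Lrat and Des were at 0 in all libraries and 4 had a mean of at least 10. Their summed normalised count was 9192 to 11480 in Klf5 LKO, against 6933 to 7006 in control, nearly all of it Rgs5 (log2 fold change 0.57, adjusted p = 0.0592), and 35.1 to 86.3 in Klf5 LKO, against 15.6 to 75.2 in control without Rgs5. The 10 endothelial markers, all with a mean of at least 10 and 5 at 0 in some library, summed to 392 to 477 in Klf5 LKO. In control 1, 2 and 3 they summed to 402, 430 and 771. Egfl7 was the most abundant, and without it the sums were 134 to 234 in Klf5 LKO, against 125 to 501 in control. The sums of 10 hepatocyte markers were 8778 to 12853 in Klf5 LKO, against 9424 to 12939 in control, mostly Alb. Of the 7 tested, 5 had a log2 fold change above 0 and 2 below, with a median of 0.089, and 1, Apob, fell (adjusted p = 0.0322). Cyp3a11, Cps1, Pck1 and Asgr1 were at 0 in some library. The 12 leukocyte and macrophage markers summed to 1287 to 1604 in Klf5 LKO, against 1499.6 to 2226 in control, mostly Csf1r, with Clec4f at 0 in all libraries. The 5 mesothelial markers summed to 1825 to 2045 in Klf5 LKO, against 2833 to 3019 in control. Only 3 had a mean of at least 10 and were tested, 1 with a log2 fold change above 0 and 2 below. Msln, Wt1 and Lrrn4 were at 0 in some library. Gpm6a, the most abundant of the mesothelial markers, had 1815, 1821 and 1999 in Klf5 LKO, against 1829, 1694 and 1534 in control. Without it the sums were 9.86 to 168 in Klf5 LKO, against 1190.0 to 1320 in control. Nearly all of the control sums was 1 gene, Msln. Its values were 0, 103 and 30.9 in Klf5 LKO, against 1165, 1302 and 1258 in control (adjusted p = 0.0328). The part of these transcripts in the members' values was not tested.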

How the data were processed

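Each library started from 4 ng of total RNA and had 10 pre-amplification and 7 enrichment cycles before single-end sequencing, per the labels' protocols. All 6 samples were used. TopHat, Bowtie2, DESeq2 and the mm10 build are named in the submitters' processing notes, with no roles, and the sources used here give no counter, annotation or strand setting. The authors deposited a signal per gene, namely its reads over a size factor of that library, and all values were whole multiples of 1 read within 0.001 (100%). The authors' deposited table also holds log2 fold changes, standard errors, Wald statistics (a score), p-values and adjusted p-values.

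Because the values are normalised, limma 3.58.1 in R 4.3.3 (lmFit, eBayes with trend) was the main test, run on log2(value + 1) for genes with a mean of at least 10, two-sided, with Benjamini-Hochberg adjustment over all 13490 tested genes and a threshold of 0.05. Adjusted p-values are limma's unless another tool is named. The pseudocount moved the changes of low genes, and for Tnc the log2 fold change was 3.60 with 0.5 and 2.36 with 5. Against DESeq2, limma's change was larger in size for Tnc (3.25, 2.63) and Nid2 (-2.79, -1.51). It was slightly smaller for Itgb3 (-1.23, -1.26) and Col4a4 (-0.937, -0.945). DESeq2 1.42.0 (335 genes called), edgeR 4.0.16 quasi-likelihood (84) and limma-voom (74) on the recovered reads were alternatives, besides 2 scalings, filters, pseudocounts, a replicate block and leaving out each library. The tests were also run on simulated counts with set changes and a fixed spread, which does not show how they behave at the spread of these data. A count of 0 reads allows up to 3 reads, a normalised count of 2.24 to 3.19 in Klf5 LKO and 2.76 to 4.74 in control, for counting error only. Levels per kilobase used the summed exon length of GENCODE M21 (GRCm38), which matched all 36 symbols. Members and lists were chosen with earlier results of these data known. Named are members that passed in any of limma, DESeq2 or edgeR or were apart by at least 0.5 on the log2 scale, the most abundant of each role, and called genes of the other lists; further members are given as values.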

Additional observations from a re-analysis of the deposited data

How the results depend on the processing

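Among all tested genes 88 passed, 335 with DESeq2 and from 14 to 105 without 1 library. Among the members 1 passed, Gpc3; 0 passed without any 1 library (limma, with 6 to 13 members at an unadjusted p of at most 0.05), with no filter (0; unadjusted 12), with limma-voom (0; unadjusted 14) or with the replicate block (0; unadjusted 13), 2 with a minimum mean of 50 or a pseudocount of 5 (Gpc3 and Lama4) and 3 with DESeq2. In the other lists 4 passed, 7 with DESeq2 and 3 to 4 without 1 library. With TMM or upper-quartile scaling, a pseudocount of 0.5 or edgeR the same member, Gpc3, passed. Leaving out 1 library moved the log2 fold change of Lama5 from -0.044 to 0.11, Col4a1 from -0.16 to 0.073, Agrn from -0.17 to 0.076 and Fn1 from -0.035 to 0.25, so these signs were not stable. Of 303 combinations of a named gene and an alternative, 10 turned the sign, all of these without 1 library, 16 ended a call and 4 gave one; the cause was not tested. The labels do not say that the replicate numbers pair samples, so the main test did not pair them. Same-numbered libraries deviated together with correlations of 0.18, -0.01 and 0.11, and unlike-numbered ones with -0.20 to 0.14. With so few libraries these values cannot show whether samples were paired. With the replicate block 110 genes were called and Gpc3 had an adjusted p of 0.0520. Few reads limit Tnc, Nid2, Itgb3, Lama1 and Col4a4.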
